A study of Homo sapiens with 12 samples.

Results

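The genes described here are 36 targets and regulators of the sterol regulatory element-binding proteins (SREBPs), grouped by role into 18 enzymes of sterol synthesis, 12 genes of fatty acid synthesis, and 6 regulators with the sterol carrier *STARD4*. A gene entered through probe sets annotated with exactly 1 gene symbol, and its brightest probe set stood for it. Of the 36 genes, 33 had such a probe set, and all 33 passed the filter on dim probe sets and were tested among 12132 genes in all (16 of sterol synthesis, 11 of fatty acid synthesis and 6 regulators). The probe sets of *CYP51A1* and *FADS1* are annotated with several symbols and give no value, and 1 further gene of sterol synthesis was not analysed here.

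The cells were 4 lines of synovial sarcoma (SS), a cancer whose cells carry the gene fusion SS18-SSX, grown in RPMI-1640 medium with fetal bovine serum. Each line was exposed for 24 h to ZSTK474, an inhibitor of all class I PI3K isoforms, at 0 µM, 0.3 µM or 3 µM. The RNA was measured on 1 Affymetrix U133 Plus 2.0 array per line and dose, 12 arrays in all. The fusion is SS18-SSX1 in Aska-SS and Yamato-SS and SS18-SSX2 in SYO-1 and Fuji. The 4 lines served as the replicates, repeated cultures of a line were not measured, and precision is limited by the small number of arrays. All 5 synovial sarcoma markers passed the filter (*TLE1*, *PRAME*, *SS18*, *CD99* and *BCL2*), as did 0 of 3 leukocyte, 0 of 2 hepatocyte and 1 of 3 endothelial markers (*PECAM1*, signal 98.6 to 172). RNA quality was read off the beta-actin control, whose log2 ratio of 3′ over 5′ signal was higher at 3 µM than at 0 µM by 0.12 to 0.21 in 3 lines and by 0.59 in Fuji, and its part in the changes below was not tested. In such bulk RNA, fewer cells that express a gene and less RNA per cell cannot be told apart.

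SREBPs are made as precursors in the membrane of the endoplasmic reticulum, where SCAP escorts them to the Golgi to be cut, and INSIG proteins hold SCAP back when sterols are plentiful. The freed factor enters the nucleus and activates the enzymes that turn acetyl-CoA into cholesterol (mainly SREBP2, encoded by *SREBF2*) and into fatty acids (mainly SREBP1, encoded by *SREBF1*). In many cell types PI3K, Akt and mTORC1 are known to raise SREBP activity, and *INSIG1* is itself an SREBP target.

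At 3 µM ZSTK474, 26 of the 33 genes fell and none rose (limma, adjusted p under 0.05). Among all genes tested 21.1% fell and 22.6% rose. By role, 15 of 16 genes of sterol synthesis fell, against 7 of 11 of fatty acid synthesis and 4 of 6 regulators. The median log2 change was -1.02 for sterol synthesis and -0.45 for fatty acid synthesis, beside 0.01 over all genes. Of the 33 genes, 21 were lower in 4 of 4 lines (63.6%, against 23.9% of all genes), and for 7 of them the 4 arrays at 3 µM all lay below the 4 at 0 µM, which held for 6.03% of all genes. Without the pairing of arrays by line, 5 genes of sterol synthesis and 1 of fatty acid synthesis passed at 3 µM, and 1.72% of all genes fell in that fit.

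**Figure D1:**
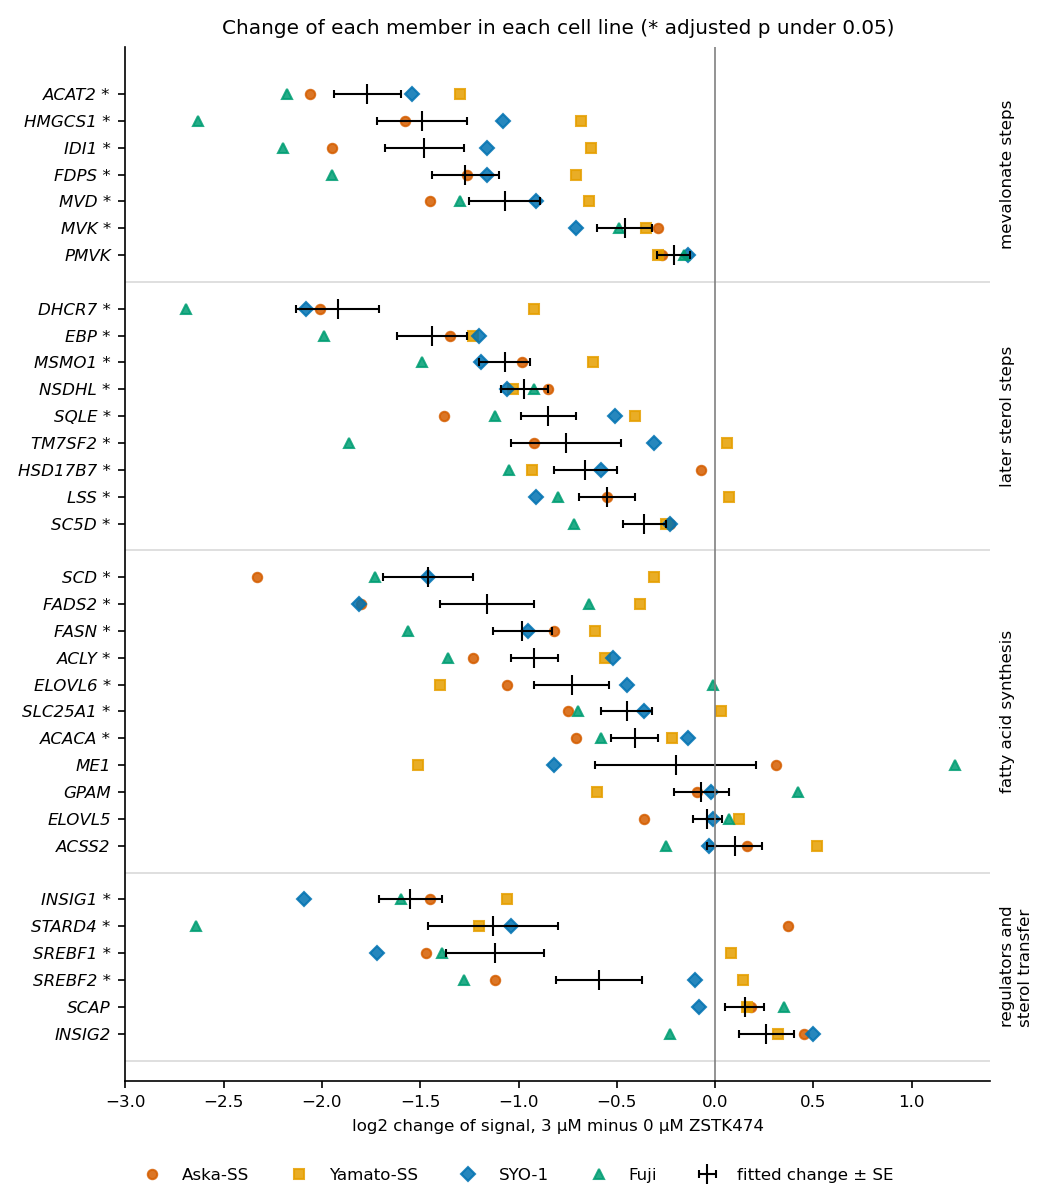
Log2 change of normalized signal between 3 µM and 0 µM ZSTK474 (x axis) of the 33 genes, by role, with 1 coloured point per cell line and a black bar for the fitted change with its standard error. An asterisk marks an adjusted p under 0.05, which 15 of 16 genes of sterol synthesis and 7 of 11 of fatty acid synthesis reached, and the Yamato-SS points often lie nearest to 0.

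The mevalonate steps, which build isoprenoid units out of acetyl-CoA, had a median log2 change of -1.27 at 3 µM, with 6 of 7 genes lower. *ACAT2*, the cytosolic thiolase that makes acetoacetyl-CoA, had signals of 4229, 2261 and 1013 in Aska-SS, 5484, 4802 and 2230 in Yamato-SS, 4363, 3387 and 1502 in SYO-1, and 5314, 1934 and 1170 in Fuji at 0, 0.3 and 3 µM. The signal was lower at each higher dose in every line, and the 4 arrays at 3 µM all lay below the 4 at 0 µM. *ACAT2* fell by 1.77 on the log2 scale, or 3.41-fold (standard error 0.17 over n = 4 cell lines, adjusted p = 1.8e-05 in limma).

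*HMGCS1*, which encodes the cytosolic HMG-CoA synthase, had signals of 3729, 2527 and 1246 in Aska-SS, 3345, 3971 and 2090 in Yamato-SS, 2472, 2601 and 1170 in SYO-1, and 5495, 2455 and 890 in Fuji at 0, 0.3 and 3 µM. The groups at 3 µM and 0 µM did not overlap, while at 0.3 µM SYO-1 and Yamato-SS were above their own 0 µM arrays. The gene fell 2.81-fold at 3 µM (log2 change -1.49, standard error 0.23, adjusted p = 0.000362). Its second probe set, also above the filter, had log2 changes of -0.73 at 0.3 µM and -1.98 at 3 µM.

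*IDI1*, the isomerase that interconverts the isoprenoid building blocks, had signals of 7258, 4400 and 1878 in Aska-SS, 4544, 4606 and 2943 in Yamato-SS, 4695, 4025 and 2106 in SYO-1, and 7567, 3175 and 1650 in Fuji at 0, 0.3 and 3 µM. All arrays at 3 µM again lay below all those at 0 µM, and the log2 change was -1.48 (standard error 0.20, adjusted p = 0.000158). *IDI1* has 4 probe sets, of which the brighter pair gave log2 changes of -1.48 and -1.37 and the dimmer pair 0.07 and 0.74, and the mean of all 4 had a log2 change of -0.51. The brightest probe sets of *IDI1* and *HSD17B7* are of the kind that Affymetrix marks with an x because their probes can match other transcripts.

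*FDPS*, the synthase of farnesyl diphosphate, had signals of 5953, 3859 and 2493 in Aska-SS, 9377, 9467 and 5721 in Yamato-SS, 5053, 4224 and 2265 in SYO-1, and 10318, 4113 and 2663 in Fuji at 0, 0.3 and 3 µM. It was lower at 3 µM in every line, and the groups overlapped in that Yamato-SS at 3 µM stood above SYO-1 at 0 µM (log2 change -1.27, standard error 0.17, adjusted p = 0.000139). *MVD*, the mevalonate diphosphate decarboxylase, fell by 1.07 and *MVK*, mevalonate kinase, by 0.46. The second brightest *MVK* probe set had a log2 change of -1.20 (adjusted p = 0.000827) and the mean of all its probe sets -0.80 (adjusted p = 0.00155). That mean includes a probe set under the filter on dim probe sets, with a log2 change of -0.92. With its brightest probe set, *MVK* no longer passed without SYO-1 (adjusted p = 0.117) or without Fuji (adjusted p = 0.0502).

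*PMVK*, the kinase between MVK and MVD, is the gene of sterol synthesis that did not pass. Its signals were 1542, 1620 and 1276 in Aska-SS, 2119, 1896 and 1737 in Yamato-SS, 2087, 2092 and 1890 in SYO-1, and 2497, 2240 and 2241 in Fuji at 0, 0.3 and 3 µM. Each line was a little lower at 3 µM, with a log2 change of -0.21 (standard error 0.084, adjusted p = 0.0566), and 4 of 14 other settings brought the adjusted p under the threshold.

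The later steps, which close squalene into the sterol ring system and finish cholesterol, had a median log2 change of -0.85, and all 9 genes tested fell at 3 µM. *DHCR7*, the reductase that completes cholesterol, had signals of 1641, 835 and 407 in Aska-SS, 4000, 3601 and 2119 in Yamato-SS, 1381, 855 and 328 in SYO-1, and 2342, 837 and 364 in Fuji at 0, 0.3 and 3 µM. Yamato-SS stood above the other lines at every dose, and at 3 µM its signal of 2119 lay beside 328 to 407 in the other lines. *DHCR7* had the largest fall of the 33 genes, 3.79-fold (log2 change -1.92, standard error 0.21, adjusted p = 4.09e-05).

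*EBP*, the sterol isomerase, had signals of 2338, 1434 and 920 in Aska-SS, 2615, 2491 and 1113 in Yamato-SS, 2580, 1795 and 1121 in SYO-1, and 3576, 1224 and 903 in Fuji at 0, 0.3 and 3 µM. The 4 arrays at 3 µM lay close together and all below those at 0 µM (log2 change -1.44, standard error 0.18, adjusted p = 7.73e-05). *MSMO1*, the oxidase that removes methyl groups from the sterol ring, had signals of 7942, 5849 and 4031 in Aska-SS, 4394, 4464 and 2863 in Yamato-SS, 5753, 5086 and 2526 in SYO-1, and 9452, 5151 and 3370 in Fuji at 0, 0.3 and 3 µM. These groups at 3 µM and 0 µM did not overlap either, and the log2 change was -1.07 (standard error 0.13, adjusted p = 8.03e-05).

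*NSDHL*, the dehydrogenase that acts after MSMO1, had signals of 2496, 1893 and 1383 in Aska-SS, 1027, 1010 and 502 in Yamato-SS, 837, 569 and 401 in SYO-1, and 1051, 671 and 555 in Fuji at 0, 0.3 and 3 µM. Its level was highest in Aska-SS at every dose, so the groups overlapped, but the change lay within -1.06 to -0.85 in all 4 lines, with a fitted log2 change of -0.97 (standard error 0.12, adjusted p = 9.85e-05). *SQLE* (squalene epoxidase), *TM7SF2* (a sterol reductase), *HSD17B7* (a keto reductase), *LSS* (lanosterol synthase) and *SC5D* (a sterol desaturase) fell by 0.36 to 0.85 on the log2 scale.

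Of these, *LSS* and *TM7SF2* were slightly higher at 3 µM in Yamato-SS (log2 change 0.07 and 0.06), and *HSD17B7* changed by -0.07 in Aska-SS. *TM7SF2* lost its call in 10 of 14 other settings, among them leaving out Aska-SS (adjusted p = 0.147), SYO-1 (0.0652) or Fuji (0.152, with a log2 change of -0.39). The second brightest probe set of *LSS* had a log2 change of -0.93 (adjusted p = 0.00415), while the mean of its probe sets, -0.39, did not pass (adjusted p = 0.128). That mean includes a probe set under the filter on dim probe sets, with a log2 change of 0.29. With the brightest, -0.55, *LSS* no longer passed without SYO-1 (adjusted p = 0.059) or without Fuji (0.0517), and *SC5D* without Fuji (0.079).

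Fatty acid synthesis split into 7 genes that fell and 4 that did not pass. The 7 are *SLC25A1*, *ACLY*, *ACACA*, *FASN*, *SCD*, *ELOVL6* and *FADS2*, which carry citrate out of the mitochondria, cleave it to acetyl-CoA, build palmitate, and elongate and desaturate the product. *ACLY*, ATP citrate lyase, had signals of 10152, 7042 and 4321 in Aska-SS, 10547, 9436 and 7168 in Yamato-SS, 9298, 8303 and 6488 in SYO-1, and 9325, 5843 and 3632 in Fuji at 0, 0.3 and 3 µM. The 4 lines started at nearly the same level, each higher dose was lower in every line, and the groups at 3 µM and 0 µM did not overlap (log2 change -0.92, standard error 0.12, adjusted p = 0.00014).

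*FASN*, the fatty acid synthase, had signals of 695, 420 and 394 in Aska-SS, 1620, 1260 and 1064 in Yamato-SS, 1066, 803 and 553 in SYO-1, and 1356, 689 and 460 in Fuji at 0, 0.3 and 3 µM. The order of doses was the same in each line, although the levels of the groups overlapped (log2 change -0.98, standard error 0.15, adjusted p = 0.000247). Averaged over its probe sets, *FASN* did not pass (log2 change -0.66, adjusted p = 0.073). The average includes a probe set under the filter on dim probe sets, with a log2 change of -0.33.

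*SCD*, the desaturase that makes monounsaturated fatty acids, had signals of 6364, 2904 and 1262 in Aska-SS, 13313, 13844 and 10758 in Yamato-SS, 7678, 5024 and 2784 in SYO-1, and 8229, 4176 and 2484 in Fuji at 0, 0.3 and 3 µM. Yamato-SS kept a higher level than the other lines at each dose, and its log2 change of -0.31 stood beside -2.33 to -1.46 in the other lines. The fitted fall was 2.75-fold (log2 change -1.46, standard error 0.23, adjusted p = 0.00033), and the 3 other *SCD* probe sets gave log2 changes of -1.87 to -2.57.

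*FADS2*, the desaturase that starts the synthesis of polyunsaturated fatty acids, had signals of 343, 154 and 98.4 in Aska-SS, 1876, 1642 and 1446 in Yamato-SS, 863, 624 and 247 in SYO-1, and 138, 96.8 and 88.2 in Fuji at 0, 0.3 and 3 µM. Untreated levels of this gene spanned 13.6-fold across the lines. The log2 change was -1.81 in SYO-1, -1.80 in Aska-SS, -0.64 in Fuji and -0.38 in Yamato-SS, and the fitted one was -1.16 (standard error 0.24, adjusted p = 0.00216).

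*ELOVL6*, an elongase of saturated fatty acids, fell by 0.73 on the log2 scale, *SLC25A1*, the mitochondrial citrate carrier, by 0.45 and *ACACA*, acetyl-CoA carboxylase, by 0.41. *ACACA* has a second probe set above the filter with a log2 change of -1.97 (adjusted p = 0.00136), and the mean of its probe sets gave -1.19 (adjusted p = 0.00202). The line order differed for *ELOVL6*, with a change of -1.40 in Yamato-SS and -0.01 in Fuji. Without Aska-SS none of the 3 passed (adjusted p = 0.0634 for *ELOVL6*, 0.104 for *SLC25A1* and 0.0846 for *ACACA*), and without Fuji *SLC25A1* and *ACACA* did not (0.0682 and 0.0614).

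**Figure D2:**
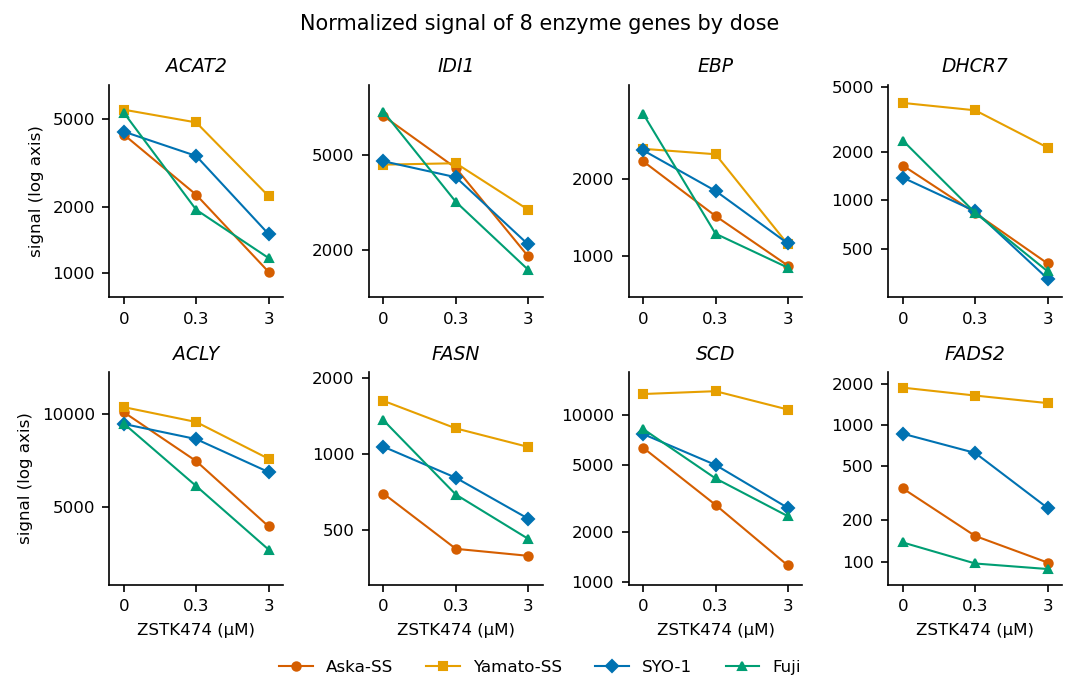
Normalized signal (y axis, log scale, a range of its own in each panel) of 8 enzyme genes at 0, 0.3 and 3 µM ZSTK474 (x axis, evenly spaced), 1 line per cell line and 1 array per point. *ACAT2* and *ACLY* step down with dose in each line, and Yamato-SS stays nearly level at 0.3 µM for *IDI1* (4606 beside 4544 at 0 µM) and *SCD* (13844 beside 13313 at 0 µM).

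The 4 genes of this arm that did not pass at 3 µM differ in role. *ACSS2*, which makes acetyl-CoA from acetate, had signals of 758, 826 and 847 in Aska-SS, 369, 408 and 528 in Yamato-SS, 498, 445 and 489 in SYO-1, and 696, 492 and 586 in Fuji at 0, 0.3 and 3 µM (log2 change 0.10, adjusted p = 0.589). *ELOVL5*, an elongase of polyunsaturated fatty acids, had signals of 9549, 8131 and 7436 in Aska-SS, 17180, 17307 and 18686 in Yamato-SS, 14556, 13829 and 14478 in SYO-1, and 14603, 15146 and 15362 in Fuji (log2 change -0.04, standard error 0.074, adjusted p = 0.669). *ACSS2* was higher at 3 µM in Aska-SS and Yamato-SS and lower in SYO-1 and Fuji, and *ELOVL5* changed by -0.36 in Aska-SS and by -0.01 to 0.12 in the other lines.

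*GPAM*, the acyltransferase that opens glycerolipid synthesis, had signals of 1005, 898 and 946 in Aska-SS, 983, 821 and 647 in Yamato-SS, 1123, 1094 and 1107 in SYO-1, and 1106, 1323 and 1481 in Fuji at 0, 0.3 and 3 µM (log2 change -0.07, adjusted p = 0.703). *ME1*, the cytosolic malic enzyme that supplies NADPH, had signals of 1725, 1482 and 2137 in Aska-SS, 159, 73.4 and 55.6 in Yamato-SS, 21.4, 21.0 and 8.27 in SYO-1, and 14.4, 4.18 and 33.6 in Fuji (log2 change -0.20, standard error 0.41, adjusted p = 0.726). *ME1* was thus bright in Aska-SS alone, and 2 of its 12 arrays lay under the floor of 12.1.

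Among the regulators, *INSIG1*, *SREBF1*, *SREBF2* and *STARD4* fell at 3 µM, and *SCAP* and *INSIG2* did not pass. *INSIG1* had signals of 4173, 2020 and 1528 in Aska-SS, 10086, 7885 and 4847 in Yamato-SS, 7109, 4152 and 1670 in SYO-1, and 5712, 2593 and 1880 in Fuji at 0, 0.3 and 3 µM. Every line was lower at each higher dose, and Yamato-SS was above the rest throughout. The gene fell 2.93-fold (log2 change -1.55, standard error 0.16, adjusted p = 2.42e-05), and its 2 other probe sets gave log2 changes of -1.84 and -1.80.

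*SREBF1* had signals of 332, 227 and 120 in Aska-SS, 626, 510 and 664 in Yamato-SS, 745, 473 and 226 in SYO-1, and 1536, 738 and 587 in Fuji at 0, 0.3 and 3 µM. The log2 change was -1.72 to -1.39 in 3 of 4 lines and 0.08 in Yamato-SS, with a fitted log2 change of -1.12 (standard error 0.25, adjusted p = 0.00319). *SREBF2* had signals of 325, 262 and 149 in Aska-SS, 548, 569 and 606 in Yamato-SS, 352, 429 and 328 in SYO-1, and 596, 387 and 245 in Fuji. Its log2 change was -1.12 in Aska-SS and -1.28 in Fuji, beside -0.10 in SYO-1 and 0.14 in Yamato-SS.

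The fitted change of *SREBF2*, -0.59 (standard error 0.22, adjusted p = 0.0453), was the closest of these calls to the threshold and was lost in 10 of 15 other settings, among them leaving out Aska-SS (adjusted p = 0.232) or Fuji (log2 change -0.36, adjusted p = 0.247). In Yamato-SS, with 1 array per dose, neither SREBP gene was lower at 3 µM. In that line 14 of 16 genes of sterol synthesis were lower, with changes of -1.30 (*ACAT2*) to 0.07 (*LSS*). Of fatty acid synthesis 8 of 11 were lower, with changes of -1.51 (*ME1*) to 0.52 (*ACSS2*), beside 48.2% of all genes. A link between the level of the SREBP genes and these changes was not tested.

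*STARD4*, which encodes a cytosolic sterol carrier, had signals of 7604, 7690 and 9842 in Aska-SS, 1611, 1279 and 699 in Yamato-SS, 1278, 1041 and 623 in SYO-1, and 1919, 661 and 308 in Fuji at 0, 0.3 and 3 µM. Aska-SS was several times brighter than the other lines at 0 µM and higher at 3 µM (0.37), where the other lines changed by -1.04 to -2.64. The fitted log2 change was -1.13 (standard error 0.33, adjusted p = 0.015), and *STARD4* no longer passed without SYO-1 (adjusted p = 0.0579), without Yamato-SS (0.0579) or without Fuji (0.0766, with a log2 change of -0.62).

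*SCAP*, the escort of the SREBPs, had signals of 1045, 971 and 1184 in Aska-SS, 619, 654 and 690 in Yamato-SS, 568, 482 and 538 in SYO-1, and 944, 1053 and 1202 in Fuji at 0, 0.3 and 3 µM (log2 change 0.15, standard error 0.10, adjusted p = 0.267). *INSIG2*, the second INSIG gene, had signals of 2164, 2895 and 2964 in Aska-SS, 368, 329 and 459 in Yamato-SS, 1210, 1472 and 1714 in SYO-1, and 853, 618 and 726 in Fuji (log2 change 0.26, standard error 0.14, adjusted p = 0.161). Both had positive fitted changes, *INSIG2* was higher at 3 µM in every line but Fuji, and without Fuji it passed (log2 change 0.43, adjusted p = 0.0237).

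**Figure D3:**
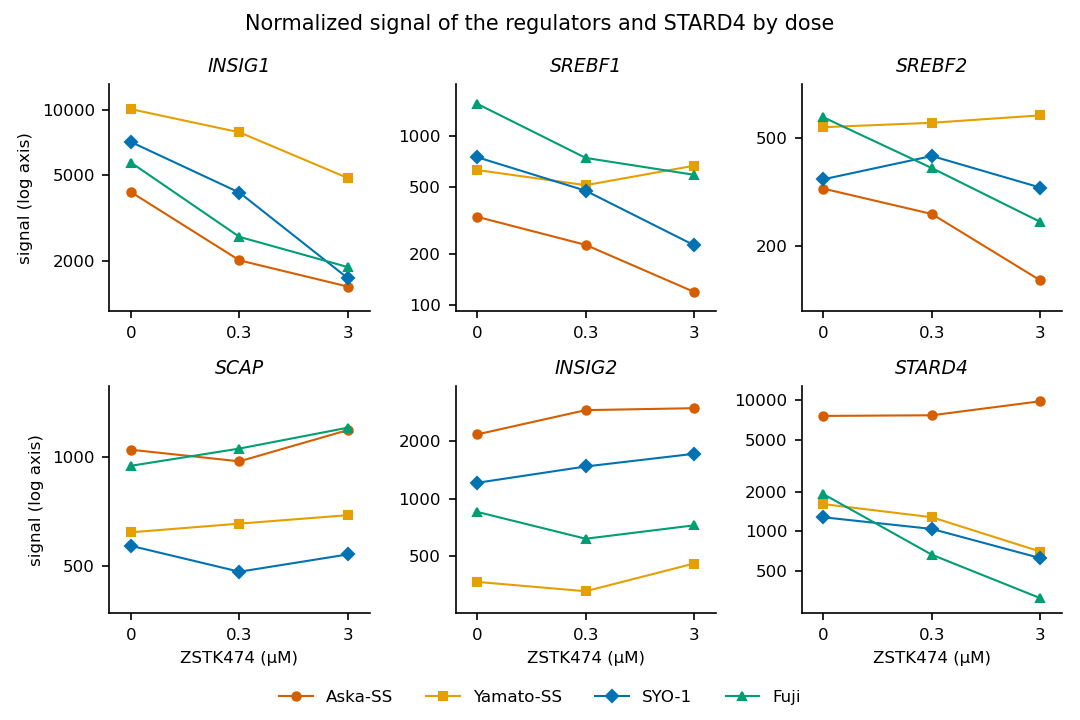
Normalized signal (y axis, log scale, a range of its own in each panel) of 5 regulators and *STARD4* at 0, 0.3 and 3 µM ZSTK474 (x axis, evenly spaced), 1 line per cell line and 1 array per point. *INSIG1* is lower at each dose step in all 4 lines, the Yamato-SS trace of *SREBF2* ends at 606 beside 548 at 0 µM, and the Aska-SS trace of *STARD4* ends at 9842 beside 7604 at 0 µM.

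At 0.3 µM, 5 of the 33 genes fell and none rose, where 3.35% of all genes fell and 4.57% rose. They are *DHCR7* (log2 change -0.83, standard error 0.21, adjusted p = 0.0383), *INSIG1* (-0.83, standard error 0.16, adjusted p = 0.0149), *ACAT2* (-0.73, standard error 0.17, adjusted p = 0.0266), *EBP* (-0.71, standard error 0.18, adjusted p = 0.0343) and *FASN* (-0.62, standard error 0.15, adjusted p = 0.0282). The median log2 change was -0.41 for sterol synthesis and -0.32 for fatty acid synthesis. The count of 3 genes of sterol synthesis at this dose depended on which lines were kept, since 0 passed without Aska-SS, without SYO-1 or without Fuji (6, 10 and 5 at an unadjusted p under 0.05 in limma) and 4 without Yamato-SS. The share of all genes that fell moved too, to 0% without Aska-SS, 0.857% without SYO-1, 0.206% without Fuji and 1.15% without Yamato-SS.

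The step between 0.3 and 3 µM took in 13 genes that were lower at 3 µM and none that was higher, where 8.09% of all genes were lower and 7.25% higher. They are 10 genes of sterol synthesis (*ACAT2*, *HMGCS1*, *MVD*, *IDI1*, *FDPS*, *SQLE*, *MSMO1*, *NSDHL*, *EBP* and *DHCR7*), with *ACLY*, *SCD* and *INSIG1*. By brightest probe set, *HMGCS1* had the largest change of this step, -1.14 (adjusted p = 0.00915), after -0.35 between 0 and 0.3 µM (adjusted p = 0.367). Of the 16 genes of sterol synthesis, 1 passed at this step without SYO-1, 3 without Aska-SS, 6 without Yamato-SS and 8 without Fuji, where 2.86%, 3.25%, 4.97% and 6.51% of all genes were lower.

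The lines differed in how the fall was divided between the doses. In Fuji the median log2 change of sterol synthesis was -0.80 at 0.3 µM and -1.40 at 3 µM, in Aska-SS -0.55 and -1.12, in SYO-1 -0.24 and -0.98, and in Yamato-SS 0.00 and -0.63. The median of the step between 0.3 and 3 µM was -0.68 to -0.57 in 3 lines and -0.42 in Fuji, so that in Yamato-SS nearly the whole change of the median lay in that step. The medians over all genes were within -0.01 to 0.03 in each line and comparison. Fuji, with the largest fall, was also the line with the largest rise in the beta-actin ratio (0.59), while its GAPDH ratio changed by 0.03. Without Fuji the median of sterol synthesis at 3 µM was -0.95.

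Levels were lower at both steps for 24 of the 33 genes (72.7%) in Aska-SS and likewise in Fuji, 23 (69.7%) in SYO-1 and 15 (45.5%) in Yamato-SS, where 27.0% to 30.0% of all genes did so. The signal at 3 µM was at most 1/2 of that at 0 µM for 18 of the genes in Fuji, 15 in Aska-SS, 13 in SYO-1 and 7 in Yamato-SS, that is 54.5%, 45.5%, 39.4% and 21.2%, beside 9.52%, 6.25%, 3.49% and 5.25% of all genes.

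Sterol synthesis had the lower median of the 2 arms at 3 µM in each line. Beside -0.75 for fatty acid synthesis it was -1.12 in Aska-SS, and the pairs were -0.98 beside -0.45 for SYO-1, -0.63 beside -0.38 for Yamato-SS and -1.40 beside -0.58 for Fuji. At 0.3 µM the order held in 3 lines, while in Yamato-SS the median of sterol synthesis was 0.00 and that of fatty acid synthesis was -0.19. This difference between the arms is given without a test. Its size depended on the probe sets used. With the mean of each gene's probe sets the medians at 3 µM were -0.93 for sterol and -0.75 for fatty acid synthesis. With the second brightest probe set, where it passed the filter on dim probe sets (8 and 6 genes), they were -1.15 and -1.10. Without Fuji they were -0.95 and -0.68.

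**Figure D4:**
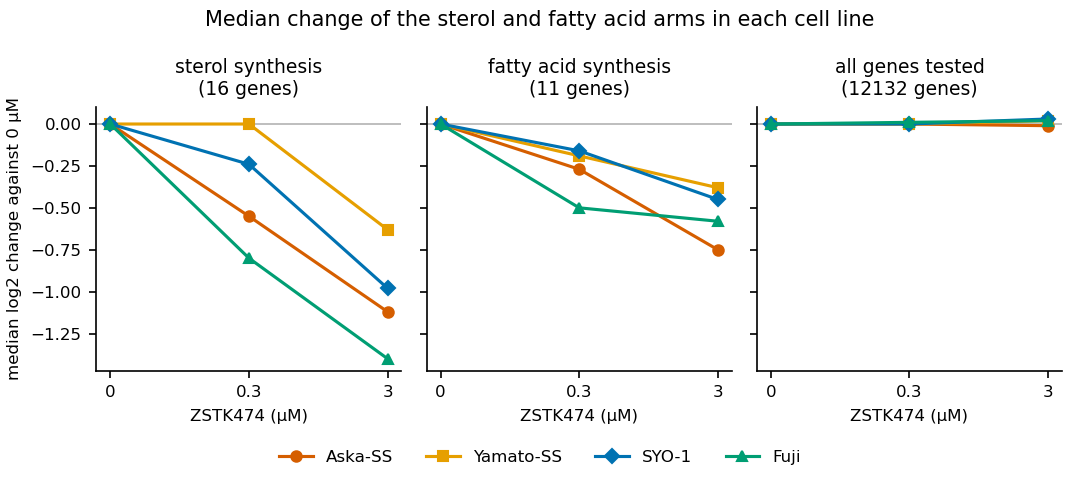
Median log2 change against 0 µM (y axis) at 0, 0.3 and 3 µM ZSTK474 (x axis, evenly spaced) over the genes of sterol synthesis, of fatty acid synthesis and over all genes tested, 1 line per cell line. The sterol medians end between -1.40 in Fuji and -0.63 in Yamato-SS and the fatty acid medians between -0.75 in Aska-SS and -0.38 in Yamato-SS, while those of all genes stay near 0.

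No gene passed the test for a difference in change at 3 µM between lines with SS18-SSX1 and lines with SS18-SSX2 (limma interaction term, adjusted p under 0.05). This held among the 33 and among all 12132 genes (0% called), and with 2 lines per fusion gene the test can miss a difference. At an unadjusted p under 0.05 there were 5 of the 33 genes and 785 of all genes. The smallest p was that of *ELOVL6* (unadjusted p = 0.00327, limma adjusted p = 0.747), with a log2 change of -1.23 in SS18-SSX1 lines and -0.23 in SS18-SSX2 lines. *LSS*, *STARD4*, *DHCR7* and *MSMO1* followed, with changes of -0.24, -0.42, -1.46 and -0.80 in SS18-SSX1 lines and -0.85, -1.84, -2.38 and -1.34 in SS18-SSX2 lines. With 2 lines per fusion gene, a difference of fusion genes and a difference of single lines cannot be told apart.

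Since many of the genes moved together, their promoters are shown. RefSeq promoters of GRCh38.p14 were matched to 32 of the 36 genes (43 promoters), which include *CYP51A1* and *FADS1*, without a signal here, and not *ACAT2*, *FASN* and *SQLE*, and the 250 bases before each start were searched on both strands. In these promoter counts, all genes are the 27305 genes with a promoter, with no filter on signal, and not the genes tested above. The core of the sterol regulatory element (SRE), the site that SREBPs bind, was written as TCACNCCAC. It was found for 1 of the 32 genes, *SREBF2* (1.09% of all genes), or 1 of 43 promoters, beside 0.883% of all 35116 promoters. A shorter form of it, CACNCCA, which the longer one contains, was found for 12 of 32 genes (17.4% of all genes), among them 7 of 15 of sterol synthesis. The letters CCAAT, the site of NF-Y, a factor known to act beside SREBPs, were found for 22 of 32 genes (37.0% of all genes), with 13 of 15 in sterol synthesis, 6 of 11 in fatty acid synthesis and 3 of 6 regulators.

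The GC box GGGCGG, the site of Sp1, was found for 30 of 32 genes (46.2% of all 27305 genes with a promoter). The E-box CACGTG, which SREBPs can also bind, was found for 4 of 32 (7.73% of the same 27305). A match of letters is no proof of binding, and the genes were not split by it. *DHCR7*, with the largest fall by brightest probe set, had no match of the shorter SRE form in these bases, and *ACSS2*, which did not pass, had one. The stretches below are those of the 6 genes with the smallest adjusted p at 3 µM among genes that fell and have a match of the shorter form. Each runs 5′ to 3′ on the strand of the gene, with that match and the nearest CCAAT match in capitals (TGG first, or ATTGG, where the match is on the other strand).
INSIG1 (chr7:155297651-155297732, + strand): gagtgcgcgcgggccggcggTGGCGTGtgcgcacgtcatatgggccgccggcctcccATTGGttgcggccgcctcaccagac
EBP (chrX:48521597-48521692, + strand): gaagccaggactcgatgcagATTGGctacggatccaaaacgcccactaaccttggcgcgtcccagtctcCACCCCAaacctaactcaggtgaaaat
MSMO1 (chr4:165327494-165327554, + strand): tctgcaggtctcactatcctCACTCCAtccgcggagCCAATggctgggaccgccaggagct
IDI1 (chr10:1048974-1049035, - strand): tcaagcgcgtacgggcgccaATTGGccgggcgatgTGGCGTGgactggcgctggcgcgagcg
SCD (chr10:100347027-100347146, + strand): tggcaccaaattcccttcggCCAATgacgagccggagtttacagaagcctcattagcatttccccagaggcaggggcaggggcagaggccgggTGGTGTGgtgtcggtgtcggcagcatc
MVD (chr16:88663113-88663196, - strand): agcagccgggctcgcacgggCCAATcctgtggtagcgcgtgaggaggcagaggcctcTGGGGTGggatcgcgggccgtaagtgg

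The pair of matches was closest in *MSMO1*, with 9 bases between them, and *IDI1*, with 10, and farthest apart in *SCD*, with 68. The match of the shorter SRE form began 207 bases before the start in *INSIG1*, 155 in *MSMO1* and 142 in *EBP*. It began 114 bases before the start in *IDI1*, 113 in *SCD* and 48 in *MVD*. At 3 µM the log2 changes of these genes were -1.55 (*INSIG1*), -1.48 (*IDI1*), -1.46 (*SCD*), -1.44 (*EBP*) and -1.07 (*MSMO1* and *MVD*).

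Other genes of the same metabolism moved in both directions at 3 µM, and the counts of these lists stand beside 21.1% of all genes that fell and 22.6% that rose. Genes of sterol export, storage and lysosomal release, several of which the sterol-sensing receptor LXR activates, had 6 of 8 higher and none lower, with a median log2 change of 0.63. *ABCA1*, the exporter of cholesterol to apolipoproteins, rose by 2.23 (standard error 0.27, adjusted p = 6.77e-05), *NPC2*, which hands cholesterol out of the lysosome, by 0.77 (standard error 0.074, adjusted p = 1.92e-05), and *MYLIP*, an LXR-induced ubiquitin ligase, by 0.74 (standard error 0.16, adjusted p = 0.00224).

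The isoprenoid branches, which take their substrates from the mevalonate steps, had 7 of 11 genes lower and 2 higher (median -0.27). *ICMT*, the methyltransferase of prenylated proteins, fell by 1.24 (standard error 0.12, adjusted p = 1.89e-05) and *PDSS1*, which builds the tail of coenzyme Q, by 1.15 (standard error 0.12, adjusted p = 2.94e-05). Both subunits of the farnesyltransferase rose, *FNTA* by 0.76 (adjusted p = 6.01e-05) and *FNTB* by 1.20 (adjusted p = 0.00419).

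Of 12 genes of SREBP maturation and turnover, 5 rose and 3 fell (median 0.23), and the 3 of 12 that fell are a share near that of all genes. *VCP* and *UFD1*, which pull proteins out of the endoplasmic reticulum for degradation, fell by 0.63 and 0.70, as did *PAQR3*, a Golgi protein, by 0.72. *ERLIN2*, an adaptor in that degradation, rose by 0.52 (standard error 0.096, adjusted p = 0.00104). Of the other 3 sterol genes tested, *ERG28* and *MMAB* fell by 0.82 and 0.88 and *TMEM97* had a log2 change of -0.08 (adjusted p = 0.539).

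Other genes of fatty acid and glycerolipid synthesis had 6 of 18 lower and 1 higher (median -0.13). *IDH1*, a cytosolic source of NADPH, fell by 0.81 (standard error 0.10, adjusted p = 8.21e-05). *ACACB*, the mitochondrial form of acetyl-CoA carboxylase, whose product restrains fatty acid oxidation, rose by 0.86 (standard error 0.14, adjusted p = 0.000368) beside the fall of *ACACA*. Genes of fatty acid oxidation had 5 of 13 higher and none lower (median 0.16), among them *HADHB* (0.46, adjusted p = 0.000259) and *CPT1A* (0.61, adjusted p = 0.00379), which sends fatty acids into the mitochondria.

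**Figure D5:**
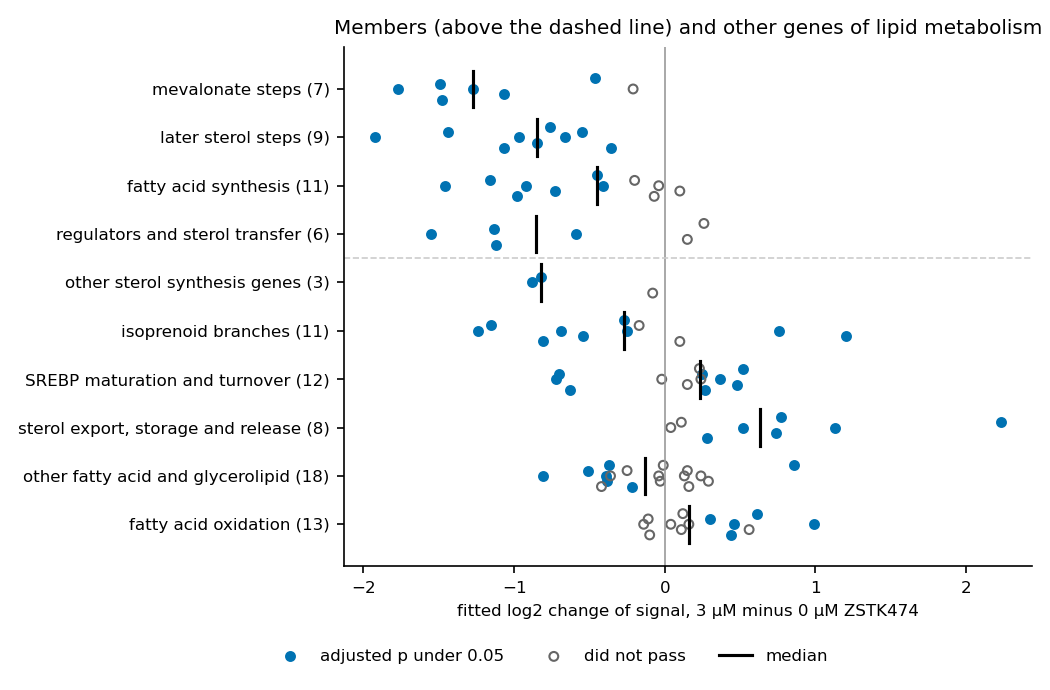
Fitted log2 change of each gene between 3 µM and 0 µM ZSTK474 (x axis) in the 4 role groups (above the dashed line) and 6 further lists, with the number tested in brackets, filled points for an adjusted p under 0.05, open points for the rest and a black bar at each median. The medians of sterol synthesis lie at -1.27 (mevalonate steps) and -0.85 (later steps), and that of sterol export, storage and release at 0.63.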

How the data were processed

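RNA was hybridised to 12 Affymetrix U133 Plus 2.0 arrays. The deposited values are linear signal intensities made by the authors with MAS5 (per the labels, with no version stated) and scaled to a common trimmed mean per array. The methods name quantile normalization in GeneSpring, which the deposited columns had not undergone, so it was applied here to the deposited intensities, followed by a floor at the 20th percentile (signal 12.1) and log2. The deposited array medians were 60.1 to 85.3. They were higher at 3 µM than at 0 µM in every line, in Fuji 71 beside 70.6. Without quantile normalization *MVK* (limma adjusted p = 0.0555), *TM7SF2* (0.0977) and *SREBF2* (0.116) did not pass at 3 µM, and *PMVK* did (0.0441). After 62 control probe sets were removed, probe sets with a mean log2 above the median (6.03) were kept. Of 54675 probe sets, 41097 carry 1 gene symbol, 1801 several, and 11777 are unnamed in the annotation used here.

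Tests were run with limma 3.58.1 in R 4.3.3 (Python 3.11.15 for motifs and figures), with dose as a factor, cell line as a block, variance moderation with a trend on mean signal, and Benjamini-Hochberg adjustment over 12132 genes at a threshold of 0.05. Standard errors are those of the fitted log2 change over 4 lines. The replicate number is the cell line, so arrays are paired by line. After subtraction of the dose means, r was 0.828 to 0.931 between arrays of one line. Between arrays of different lines and doses it was -0.43 to -0.0892, and the subtraction by itself pushes these values below 0. The labels do not say whether the cultures of a line were set up separately. Other normalization, floor, filter, probe set and model choices, and leaving out each line, were tried as alternatives. The fit was tested on simulated data. The genes and the lists were chosen with earlier results of these data known, so the counts are no independent support of a direction. Values on each array are given for the 4 genes of each role with the smallest adjusted p at 3 µM, all regulators, and each gene that did not pass. Other genes are named from 6 lists, at most 3 of each with the smallest adjusted p plus those against the majority. Some items are not reported here.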

Additional observations from a re-analysis of the deposited data

Results flagged for a closer look

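In 132 sets of 4 values (the level of each gene at each dose and its change at 3 µM), 6 had 1 cell line far from the other 3. Chance gives about 1 in 20, so this count is near that of chance. The sets of a gene also share arrays and are not independent. Yamato-SS was high at 0.3 µM for *HMGCS1* (log2 signal 11.96, against 11.26 to 11.35 in the other lines), *MVK* (9.86, against 9.10 to 9.22), *FDPS* (13.21, against 11.91 to 12.04) and *DHCR7* (11.81, against 9.70 to 9.74). Yamato-SS was also high for *DHCR7* at 3 µM (11.05, against 8.36 to 8.67). For *SC5D* the change at 3 µM was -0.72 in Fuji and -0.25 to -0.23 elsewhere. The change of *ACSS2* at 3 µM was positive in both SS18-SSX1 lines (0.16 and 0.52) and negative in both SS18-SSX2 lines (-0.03 and -0.25), a difference of 0.48 that did not pass the interaction test (limma adjusted p = 0.768).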

How the results depend on the processing

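Of 476 repeats for single genes at 3 µM, 405 kept direction and side of the threshold, 61 lost the call, 5 gained it and 5 changed sign, all of the last among genes that had not passed. With each line left out in turn, the log2 change ranged over -0.04 to 0.22 for *ACSS2*, -0.68 to 0.24 for *ME1*, -0.10 to 0.06 for *ELOVL5* and -0.24 to 0.10 for *GPAM*. Under no replicate block, which ignores the pairing by line and gave 20 of the 61 losses, 5 genes of sterol synthesis and 1 of fatty acid synthesis fell at 3 µM, and 0 and 0 at 0.3 µM and between 0.3 and 3 µM (limma, with 3 and 0 at 0.3 µM and 5 and 1 between the doses at unadjusted p under 0.05). At 0.3 µM, against 3 and 1 genes, 0 and 0 fell with no filter on dim probe sets and with no variance trend, 1 and 0 with probe sets averaged per gene, and 6 and 4 with array weights, while 3 genes of fatty acid synthesis fell with the arrays of the 2 doses alone. The share of all genes that fell, 3.35%, moved with these counts, to 0.207% with no filter, 0.387% with no variance trend, 2.07% with averaged probe sets, 7.88% with array weights and 5.36% with the 2 doses alone. Between 0.3 and 3 µM, against 10 and 2 genes, 4 and 0 were lower with no filter, 4 of 8 of sterol synthesis with the second brightest probe set, and 0 of fatty acid synthesis with no variance trend, where 2.82%, 8.08% and 4.89% of all genes were lower, against 8.09%. With the second brightest probe set 8 of 8 genes of sterol synthesis and 4 of 6 of fatty acid synthesis fell at 3 µM, beside 21% of all genes. Fewer genes have such a probe set above the filter. The fatty acid median of -0.45 was -0.75 with probe sets averaged per gene and -1.10 with the second brightest. With each line left out in turn, the fatty acid count at 3 µM was 4 to 7 and the median -0.68 to -0.37. The counts at 0.3 µM were then 0 to 4 for sterol and 0 to 1 for fatty acid synthesis, and those between 0.3 and 3 µM 1 to 8 and 0 to 2. In these fits 16.6% to 19.5% of all genes fell at 3 µM, 0% to 1.15% at 0.3 µM and 2.86% to 6.51% between the doses. The causes were not tested. Counts of genes of sterol synthesis at 3 µM were 11 to 16 in all settings but no replicate block and the second brightest probe set. In the settings with 11 to 16, the share of all genes that fell was 11.6% to 25.6%.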
